A study of Mus musculus with 9 samples.

Results

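The interleukin 1 (IL-1) family genes described here were Il1a, Il1b, Il18 and Il33, which encode ligands that switch signalling on, Il1rn, which encodes the receptor antagonist, Il1r1, Il1rl1 and Il18r1, which encode the receptors that bind those ligands, Il1rap, which encodes a shared accessory chain, and Il1r2, which encodes a decoy receptor. These 10 genes were chosen by name among the 27203 gene IDs of the table, and FPKM (fragments scaled to transcript length and library size) were summed over the 35 transcript rows that the table lists for them. Bulk RNA was sequenced from the lung of 9 male C57BL/6 mice, 6 to 8 weeks old, with 3 mice in each of 3 groups and no genotype given beyond the strain. Mice of the VILI (ventilator-induced lung injury) 0 hours group were sampled at the end of 4 hours of mechanical ventilation with a tidal volume of 20 ml/kg, mice of the VILI 6 hours group were sampled 6 hours after the same ventilation, and control mice were intubated and left without ventilation. Because control mice were intubated but not ventilated at a low tidal volume, ventilation as such and high stretch cannot be told apart.

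IL-1α and IL-1β bind the receptor encoded by Il1r1, which then recruits the accessory chain encoded by Il1rap and signals through Myd88 and the IRAK kinases to NF-κB. The antagonist occupies the same receptor without recruiting the accessory chain, and the decoy receptor binds IL-1 but lacks the signalling domain. IL-33 and IL-18 use related receptors, and in the lung the family is known for drawing in neutrophils and for reporting damage to epithelium and endothelium.

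The clearest differences were in the agonist Il1b and the decoy Il1r2. The level of Il1b was 8.8-fold and Il1r2 45.1-fold above control at VILI 0 hours, and both remained called at VILI 6 hours. The antagonist Il1rn rose less than Il1b, by 2.55-fold at VILI 0 hours. Il33, the most abundant member in control lung, fell to 0.491 of its control level at VILI 0 hours, while Il18 rose 1.56-fold. A gene was called, and is said to have risen or fallen, where the unadjusted P of limma was under 0.05, the threshold that the study used. The Benjamini-Hochberg adjusted p over all genes tested is given beside it, and fold changes are on the log2(FPKM + 0.1) scale, which understates the change of low genes.

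In VILI 0 hours vs control, 5 of the 10 genes were called, 4 higher and 1 lower, where 16.2% of the 19378 genes tested were called (6.81% higher and 9.35% lower). In VILI 6 hours vs control, 6 of the 10 were called, all higher, against a background of 20.4% (8.17% higher and 12.2% lower). Between both VILI groups, 1 of the 10 was called, Il1r1, higher at 6 hours, against 10% (5.06% higher and 4.94% lower). No member had a limma adjusted p under 0.05 in any of these 3 comparisons, and the lowest values were 0.0725, 0.0587 and 0.479, whereas 0.284%, 0.702% and 0.0% of all genes passed it. The groups did not overlap in 7 of the 10 genes at VILI 0 hours and in 4 of 10 at VILI 6 hours, where 33.5% and 24.6% of all genes did not overlap with control. Both comparisons with control share the same 3 control libraries, so they are not independent of each other.

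Levels of all genes were set by the scaling of the libraries. The median log2 fold change of all genes was -0.07 and -0.09 in the comparisons with control, and became 0.05 and 0.04 when each library was centred on its median, which moved the share of calls that were higher from 42.1% to 61.2% at VILI 0 hours and from 40.1% to 58.1% at VILI 6 hours. No member that was called changed direction under this centring. Among the VILI 6 hours libraries, replicate 1 stood apart: without it, the genes called in VILI 6 hours vs control went from 3952 to 7540 over all genes. Where leaving it out changed a member's call, the value without it is given with that member. Column totals were 366360 to 388459 FPKM, and read counts and read totals were not used here, so precision was judged only from the spread between libraries.

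**Figure D1:**
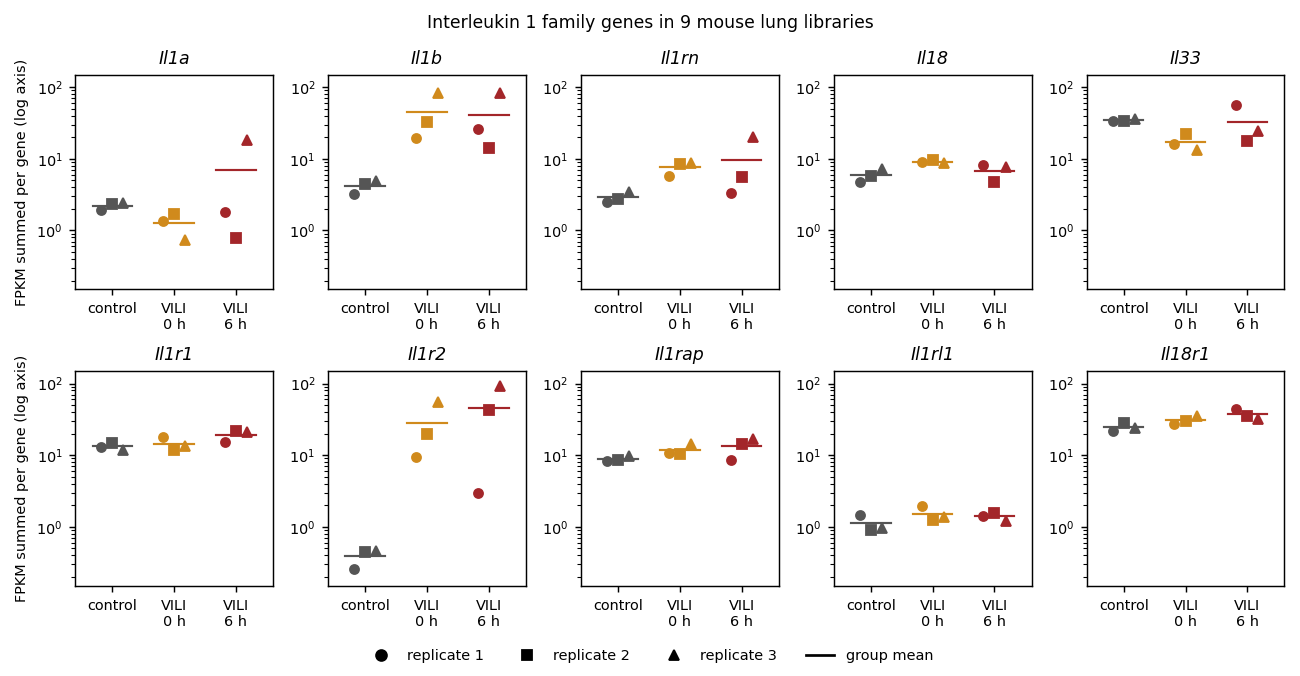
FPKM summed per gene (log axis) of the 10 genes in each of the 9 libraries, with the marker shape giving the replicate number and the line the group mean (n = 3). Il1b and Il1r2 lie above control in all 6 VILI libraries, and Il1a is high in 1 library, VILI 6 hours replicate 3, at 18.5 FPKM.

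Control lung held the family in a clear order. The level of Il33 was highest, at 34.3 ± 1.54 FPKM (SD, n = 3), followed by Il18r1 at 24.7 ± 3.22, Il1r1 at 13.2 ± 1.59 and Il1rap at 8.83 ± 0.833 FPKM. Then came Il18 (5.87 ± 1.15), Il1b (4.24 ± 0.864) and Il1rn (2.92 ± 0.492 FPKM), each of which overlapped its neighbour in range, and then Il1a (2.22 ± 0.259), Il1rl1 (1.12 ± 0.310) and, last, Il1r2 (0.392 ± 0.114 FPKM). All other neighbours in this order had ranges that did not overlap. After ventilation the order was led by other genes: Il1b came first at VILI 0 hours with a mean of 44.9 ± 33.3 FPKM, and Il1r2, last in control lung, came first at VILI 6 hours with 46.3 ± 45.1 FPKM. These leading levels were not separable from the next, since at VILI 0 hours the ranges of neighbours overlapped from Il1b through Il18r1, Il1r2, Il33 and Il1r1 to Il1rap, as did those of Il1rl1 and Il1a, and at VILI 6 hours all neighbours from the first to Il18, which was ninth, overlapped.

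Of the ligands, Il1b encodes IL-1β, which is made by myeloid cells as an inactive precursor that caspase-1 cuts. Its level was 3.27, 4.48 and 4.95 FPKM in the control libraries, 19.65, 32.5 and 82.7 FPKM at VILI 0 hours and 26.4, 14.0 and 83.4 FPKM at VILI 6 hours. All 6 VILI libraries were above all 3 controls, and the VILI libraries of each group spanned more than the control group did. The log2 fold change was 3.14 ± 0.64 (SE) at VILI 0 hours (limma adjusted p = 0.0757) and 2.88 ± 0.64 at VILI 6 hours (adjusted p = 0.0733). The difference between both times was -0.26 ± 0.64 (limma adjusted p = 0.929). Il1b was called against control at both times in each of the 18 alternative analyses, with a log2 fold change of 2.57 to 3.6 and of 2.18 to 3.46.

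Il1a lies near Il1b on the minus strand of chromosome 2, and both lie within 71.5 kb (GRCm38; Il1a 129299610-129309972, Il1b 129364570-129371139), and encodes IL-1α, which acts without cleavage and is released by damaged cells. Its level was 1.92, 2.32 and 2.41 FPKM in control, 1.37, 1.70 and 0.725 FPKM at VILI 0 hours and 1.84, 0.797 and 18.5 FPKM at VILI 6 hours. The VILI 0 hours libraries were all below control without a call (log2 fold change -0.83 ± 0.90, limma adjusted p = 0.69). The spread in that fit included VILI 6 hours replicate 3, and the same change of -0.83 was called when that library was left out or only the 6 libraries compared were fitted. At VILI 6 hours 1 library was high and the other 2 were below every control, so the fitted change of 0.46 ± 0.90 rested on replicate 3, without which it was -0.81. Between both times the change was 1.29 ± 0.90 (limma adjusted p = 0.673) and ran from 0.02 to 2.21 with 1 library left out. It was called higher at VILI 6 hours only without replicate 2 of that group (2.21).

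The promoter windows of both neighbours are shown because the genes lie close together while only one of them was called. Each is 250 bases before to 50 bases after the start annotated by RefSeq on GRCm38.p6, read 5′ to 3′ on the minus strand, at chr2:129371090-129371389 for Il1b and chr2:129309923-129310222 for Il1a. Capitals mark matches on either strand to a C/EBP motif (TTNNGNAA), the TATA box (TATAAA) and the AP-1 motif (TGANTCA), which were found in 40.7%, 13.6% and 7.81% of the 32851 promoter windows of this length.
Il1b: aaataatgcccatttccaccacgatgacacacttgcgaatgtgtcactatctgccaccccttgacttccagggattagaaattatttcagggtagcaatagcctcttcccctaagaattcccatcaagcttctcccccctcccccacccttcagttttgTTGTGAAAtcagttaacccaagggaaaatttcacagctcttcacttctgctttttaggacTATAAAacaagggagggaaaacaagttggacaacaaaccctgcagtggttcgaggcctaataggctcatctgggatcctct
Il1a: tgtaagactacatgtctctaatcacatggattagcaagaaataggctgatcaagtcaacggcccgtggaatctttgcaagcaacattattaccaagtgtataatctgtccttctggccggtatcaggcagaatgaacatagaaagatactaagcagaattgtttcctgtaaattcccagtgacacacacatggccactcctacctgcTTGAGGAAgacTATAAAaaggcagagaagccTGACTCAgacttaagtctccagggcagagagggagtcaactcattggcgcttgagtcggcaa
With the start as position 0, the C/EBP match of Il1b begins at -91 and its TATA match at -31, and in Il1a they begin at -43 and -32, with an AP-1 match at -12. A κB consensus was absent from both windows, as it was from all but 1 of the 17 windows of the 10 genes, where 8.46% of all promoter windows hold it. A match or its absence in these windows is a description of letters only.

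Il33 encodes an alarmin that epithelial and endothelial cells keep in the nucleus and release when they are damaged. Its level was 33.2, 33.7 and 36.1 FPKM in control, 16.0, 22.3 and 13.2 FPKM at VILI 0 hours and 56.3, 17.4 and 24.5 FPKM at VILI 6 hours. All VILI 0 hours libraries were below all controls, while at VILI 6 hours replicate 1 was above them and the other 2 below. Il33 fell by 1.03 ± 0.36 on the log2 scale at VILI 0 hours (limma adjusted p = 0.213), and the change at VILI 6 hours was -0.25 ± 0.36 (adjusted p = 0.716). Without VILI 6 hours replicate 1, the change at 6 hours was -0.73 and was called. The call at VILI 0 hours was lost without control replicate 3 (-0.99) or either of replicates 1 (-0.99) and 3 (-0.86) of VILI 0 hours. Between both times Il33 was called higher at VILI 6 hours with median-centred libraries (0.79), without VILI 0 hours replicate 2 (0.98) or without VILI 6 hours replicate 2 (1.14).

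The Il33 total was spread over 5 transcript rows, and 2 of them changed places between libraries of the same group. In control, row 3 held 29.6, 0.0465 and 31.5 FPKM while row 4 held 2.67, 30.6 and 2.77 FPKM. At VILI 0 hours row 3 held 14.3, 0.0207 and 0.0152 FPKM against 1.39, 21.4 and 11.1 FPKM in row 4, and at VILI 6 hours 0.0403, 15.7 and 20.4 FPKM against 54.6, 1.54 and 2.04 FPKM. In every library 1 of these 2 rows carried 83.1% to 96.9% of the gene's FPKM, in 5 libraries row 3 and in 4 libraries row 4, with no group holding one of them alone. The 3 control sums nevertheless lay between 33.2 and 36.1 FPKM. The table gives no transcript IDs, so neither row can be tied to a transcript, and the fall of Il33 holds for the summed level only: taking just the row with the highest mean gave a log2 change of 0.19.

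**Figure D2:**
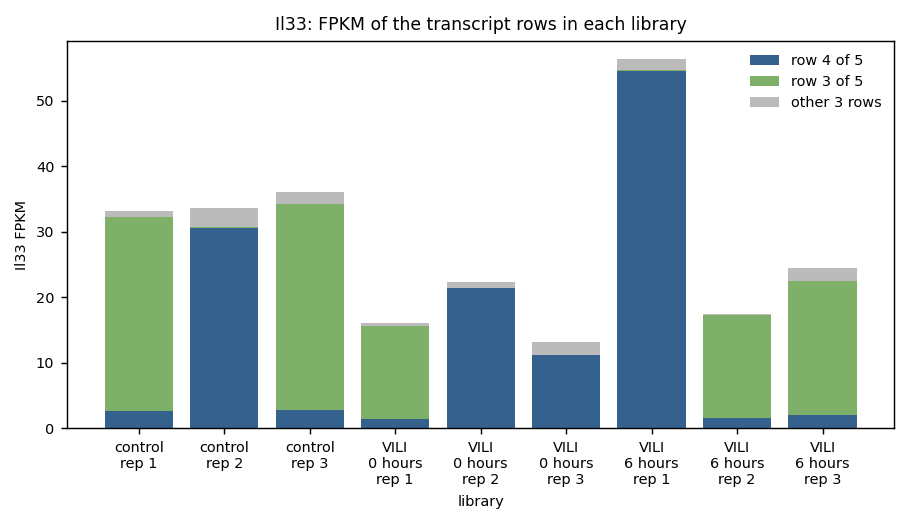
Il33 FPKM in each of the 9 libraries, as bars stacked from row 4, row 3 and the other 3 transcript rows. In each library either row 3 or row 4 carries most of the FPKM, and the bars of VILI 0 hours (13.2 to 22.3 FPKM) are lower than the control bars (33.2 to 36.1 FPKM).

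Il18 encodes IL-18, a ligand that epithelial cells and macrophages hold as a precursor and that caspase-1 also cuts. Its level was 4.80, 5.73 and 7.09 FPKM in control, 9.10, 9.49 and 8.77 FPKM at VILI 0 hours and 8.09, 4.69 and 7.70 FPKM at VILI 6 hours. The VILI 0 hours libraries were close together and above both other groups, while those of VILI 6 hours overlapped control. Il18 rose by a log2 of 0.64 ± 0.22 at VILI 0 hours (limma adjusted p = 0.197), and was 0.19 ± 0.22 from control at VILI 6 hours (adjusted p = 0.627). The difference between both times, -0.45 ± 0.22, was not called (limma adjusted p = 0.525), although Il18 was the only 1 of the 10 genes in which these groups did not overlap, as in 12.5% of all genes. That difference was called without VILI 6 hours replicate 1 (-0.59) or 3 (-0.56). The rise at VILI 0 hours was not called without control replicate 1 (0.51), nor with the highest-mean row alone (0.30), and the change at VILI 6 hours was called without VILI 6 hours replicate 2 (0.44). Il18 rows also varied: row 2 held 0 to 15.5% of the gene's FPKM in control, 24.9% to 32.2% at VILI 0 hours, and 28.6%, 0 and 80.5% at VILI 6 hours.

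The shares of the 4 agonist ligands add to a whole, so a higher share of one lowers the others. Il1b made up 7.58% to 9.80% of the summed FPKM of Il1a, Il1b, Il18 and Il33 in control, 42.6% to 78.4% at VILI 0 hours and 28.5% to 62.2% at VILI 6 hours. Il33 made up 71.4% to 76.8% in control, 12.55% to 34.7% at VILI 0 hours and 18.3% to 60.8% at VILI 6 hours. No VILI library overlapped control in either share, including VILI 6 hours replicate 1, where the level of Il33 itself (56.3 FPKM) was above every control.

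The antagonist Il1rn was measured at 2.54, 2.74 and 3.47 FPKM in control, 5.82, 8.53 and 8.63 FPKM at VILI 0 hours and 3.35, 5.57 and 20.4 FPKM at VILI 6 hours. The VILI 0 hours libraries were all above control, and at VILI 6 hours replicate 1 fell inside the control range. Il1rn rose by a log2 of 1.35 ± 0.53 at VILI 0 hours (limma adjusted p = 0.255) and of 1.30 ± 0.53 at VILI 6 hours (adjusted p = 0.216). These calls were kept in 13 and 12 of the 18 alternatives, and the call at VILI 6 hours was lost without VILI 6 hours replicate 3, where the log2 fold change was 0.56, and without control replicate 1 (1.21) or 2 (1.27). At VILI 0 hours it was lost without control replicate 1 (1.26) or 2 (1.32) or either of replicates 2 and 3 of VILI 0 hours (1.26 each). Neither call was kept with the highest-mean row alone (1.24 and 1.27), and that at VILI 6 hours was lost with only the 6 libraries compared or without the mean-variance trend in limma. Without VILI 6 hours replicate 1 the rise at VILI 6 hours was 1.85. Between both times Il1rn was called lower at VILI 6 hours without replicate 3 of that group (-0.79), and was at 0.50, not called, without replicate 1. Row 4 of its 4 rows carried 75.0% to 99.2% of the FPKM in all 9 libraries.

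Il1rn has 3 RefSeq start windows on the plus strand of chromosome 2, and the one nearest the start of the gene, chr2:24336610-24336909 (GRCm38.p6), is shown for contrast with the agonist windows. It holds an AP-1 match (capitals) beginning at -141 and neither a C/EBP nor a TATA match.
Il1rn: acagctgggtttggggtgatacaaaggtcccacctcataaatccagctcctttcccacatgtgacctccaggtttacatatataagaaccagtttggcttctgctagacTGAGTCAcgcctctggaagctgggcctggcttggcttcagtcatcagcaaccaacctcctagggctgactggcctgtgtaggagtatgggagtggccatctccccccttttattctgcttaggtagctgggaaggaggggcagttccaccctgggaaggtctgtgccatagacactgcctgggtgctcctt
The other 2 windows begin at 24345041 and 24345121, overlap each other and hold 3 C/EBP matches each, and the second of them also holds a TATA match, 14 bases after its start. The FPKM rows cannot be assigned to these starts.

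Set against the agonist, the antagonist was lower in each VILI library than in control. The ratio of Il1rn to Il1b FPKM was 0.774, 0.612 and 0.702 in control, 0.296, 0.263 and 0.104 at VILI 0 hours and 0.127, 0.398 and 0.245 at VILI 6 hours, so no VILI library reached the control range. On the log2 scale the ratio was -0.51 ± 0.17 (SD, n = 3) in control, -2.30 ± 0.82 at VILI 0 hours and -2.09 ± 0.81 at VILI 6 hours. Both differences, -1.78 and -1.58, gave p = 0.1 in a two-sided exact permutation test, the smallest p that 3 against 3 libraries allow, so neither could pass 0.05. VILI 6 hours differed from VILI 0 hours by 0.21 (exact permutation p = 0.7).

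**Figure D3:**
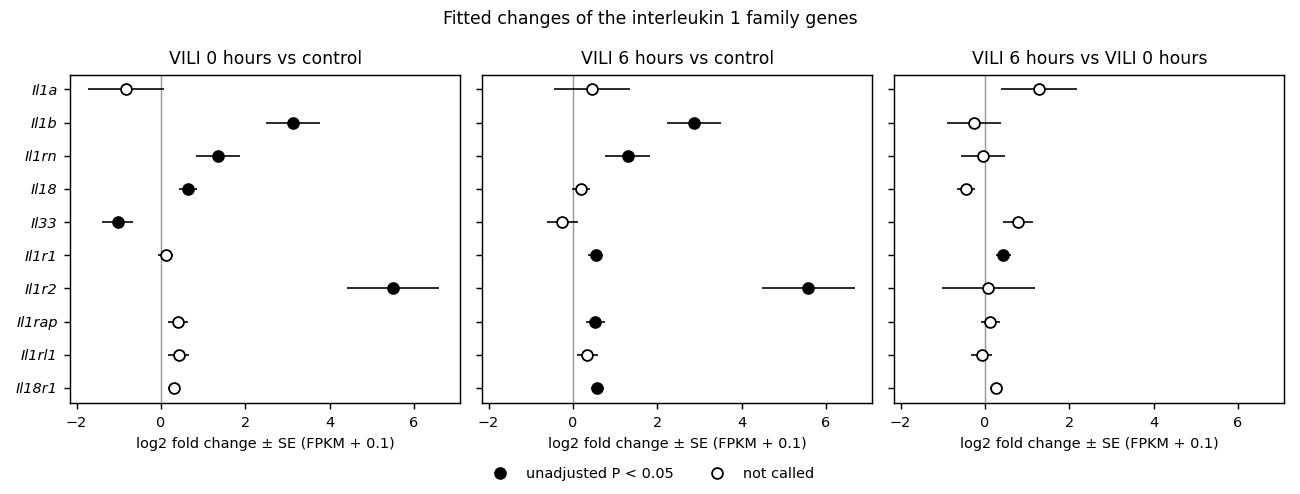
Fitted log2 fold change (horizontal axis, on FPKM + 0.1) with its SE for the 10 genes in the 3 comparisons. Filled points have an unadjusted limma P under 0.05. Il1r2 (5.50 and 5.58) and Il1b (3.14 and 2.88) lie farthest from 0 in the 2 panels against control, and Il1r1 (0.43) is the filled point of the third panel.

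Among the signalling receptors, Il1r1 encodes the receptor for both IL-1 ligands. Its level was 12.85, 14.97 and 11.86 FPKM in control, 17.8, 11.9 and 13.6 FPKM at VILI 0 hours and 15.4, 21.75 and 21.2 FPKM at VILI 6 hours. The VILI 0 hours libraries overlapped control, and the VILI 6 hours libraries were all above it. The log2 fold change was 0.11 ± 0.18 at VILI 0 hours (limma adjusted p = 0.804), and Il1r1 rose by 0.54 ± 0.18 at VILI 6 hours (adjusted p = 0.163). The rise from VILI 0 hours to VILI 6 hours, 0.43 ± 0.18 (limma adjusted p = 0.479), was called in 7 of the 18 alternatives and its groups overlapped. It was lost without control replicate 1 or 3 (0.43 each), VILI 0 hours replicate 2 (0.30) or 3 (0.40) and VILI 6 hours replicate 2 (0.34) or 3 (0.36), and in 5 of the other alternatives, and the call against control was lost without control replicate 3 (0.47) and VILI 6 hours replicate 2 (0.45).

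Il1rap encodes the accessory chain that IL-1 and IL-33 receptors share. It was at 8.21, 8.51 and 9.78 FPKM in control, 10.6, 10.5 and 14.2 FPKM at VILI 0 hours and 8.65, 14.3 and 16.8 FPKM at VILI 6 hours. All VILI 0 hours libraries were above control without a call (log2 fold change 0.40 ± 0.23, limma adjusted p = 0.434, though called with only the 6 libraries compared or without VILI 6 hours replicate 1), whereas at VILI 6 hours Il1rap was called higher (0.53 ± 0.23, limma adjusted p = 0.238) with replicate 1 inside the control range. This call was kept in 7 of the 18 alternatives and lost without any 1 of 7 libraries (0.33 to 0.60, lowest without VILI 6 hours replicate 3), namely the 3 controls, VILI 0 hours replicates 1 and 2 and VILI 6 hours replicates 2 and 3. It was also lost with no filter on low values, only the 6 libraries compared, no mean-variance trend or the highest-mean row alone. Without VILI 6 hours replicate 1 the log2 fold change was 0.81, and the difference between both times was 0.41 and was called, while without replicate 3 it was -0.07.

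Il18r1 encodes the chain of the IL-18 receptor that binds the ligand. It was at 21.8, 28.2 and 24.2 FPKM in control, 27.05, 30.2 and 35.0 FPKM at VILI 0 hours and 44.3, 35.8 and 31.7 FPKM at VILI 6 hours. The groups overlapped at VILI 0 hours (log2 fold change 0.31 ± 0.15, limma adjusted p = 0.356), where Il18r1 was called with median-centred libraries (0.43), with only the 6 libraries compared, or without control replicate 2 (0.41), VILI 0 hours replicate 1 (0.40) or VILI 6 hours replicate 1 (0.31), and all VILI 6 hours libraries were above all controls. The rise at VILI 6 hours was 0.58 ± 0.15 (limma adjusted p = 0.106) and was called in all 18 alternatives, with a log2 fold change of 0.45 to 0.71. Between both times Il18r1 was called in 1 of the 18 alternatives, without VILI 6 hours replicate 3 (0.38).

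Il1rl1 encodes the IL-33 receptor, ST2, and was low throughout. It was at 1.47, 0.913 and 0.964 FPKM in control, 1.95, 1.24 and 1.38 FPKM at VILI 0 hours and 1.43, 1.58 and 1.22 FPKM at VILI 6 hours. The groups overlapped, and neither change from control was called (0.42 ± 0.25, limma adjusted p = 0.454, and 0.34 ± 0.25, adjusted p = 0.463), although that at VILI 0 hours was called without control replicate 1 (0.62). Row 4 of its 5 rows is listed at 0 in control replicate 1 and VILI 0 hours replicate 1 and carried 67.3% to 97.7% of the FPKM in the other 7 libraries.

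The decoy receptor gene Il1r2 was the member that differed most. Its level was 0.261, 0.451 and 0.465 FPKM in control, 9.43, 19.5 and 55.2 FPKM at VILI 0 hours and 2.97, 42.9 and 93.0 FPKM at VILI 6 hours. Every VILI library was above every control, and the lowest, VILI 6 hours replicate 1, was far below the other 2 of its group. Il1r2 rose by a log2 of 5.50 ± 1.10 at VILI 0 hours (limma adjusted p = 0.0725) and of 5.58 ± 1.10 at VILI 6 hours (adjusted p = 0.0587), with 0.08 ± 1.10 between both times (adjusted p = 0.989). It was called against control at both times in all 18 alternatives, with a log2 fold change of 4.04 to 6.09 and of 4.19 to 7.03. Without VILI 6 hours replicate 1, the rise at 6 hours was 7.03, and the difference from VILI 0 hours was 1.54 and was called.

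Il1r2 opens a cluster of 6 receptor genes of the family on the plus strand of chromosome 1 (GRCm38), which runs over 477.6 kb through Il1r1 (40225080-40317257), Il1rl2, Il1rl1 (40429570-40465415) and Il18r1 (40465552-40500854) to Il18rap. The gene spans 40074079-40125231, and its RefSeq start window at chr1:40085843-40086142 (GRCm38.p6, plus strand), inside the span that GENCODE M21 gives, is shown because the gene changed most; it holds none of the 4 motifs searched.
Il1r2: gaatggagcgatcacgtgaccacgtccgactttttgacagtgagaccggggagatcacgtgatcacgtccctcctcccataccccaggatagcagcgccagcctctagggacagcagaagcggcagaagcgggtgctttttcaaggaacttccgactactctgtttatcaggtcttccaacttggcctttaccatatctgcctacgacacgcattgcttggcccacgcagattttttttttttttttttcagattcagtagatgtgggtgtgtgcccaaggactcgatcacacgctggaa
The calls of the neighbours differed, without a test between genes. Il1r2 was called higher than control at both times, Il1r1 and Il18r1 at VILI 6 hours, and Il1rl1, which ends 136 bases before Il18r1, at neither. Row 2 of the 3 Il1r2 rows carried 45.1% to 97.8% of the FPKM. Of the genes with a symbol and a mean of at least 1 FPKM (14012), the one with a profile most like Il1r2 over the 9 libraries was Gm37347, with a root mean square difference of 0.61 on the log2 scale after centring. This annotated locus lies inside Il1r2 on the same strand (40088511-40091581), at 0.0592 to 0.113 FPKM in control and 0.491 to 19.2 FPKM in the VILI libraries, so its reads and those of Il1r2 transcripts may not be separable. Mmp8, a neutrophil collagenase (0.80), and Acod1, the itaconate-producing enzyme of activated macrophages (0.85), came next.

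The RNA ratio of decoy to signalling receptor, taken within each library, differed between control and VILI mice. Il1r2 made up 1.99%, 2.93% and 3.78% of the summed FPKM of Il1r1 and Il1r2 in control, 34.7%, 62.1% and 80.2% at VILI 0 hours and 16.2%, 66.3% and 81.5% at VILI 6 hours. The log2 ratio of Il1r2 to Il1r1 was -4.78 ± 0.38 (SD, n = 3) in control, 0.60 ± 1.46 at VILI 0 hours and 0.26 ± 2.32 at VILI 6 hours. The differences from control, 5.38 and 5.04, gave the smallest p possible in the two-sided exact permutation test, 0.1, and both VILI groups overlapped each other (difference -0.35, exact permutation p = 0.9). The size of the differences from control depended on the pseudocount and the library, at 3.94 and 3.68 with a pseudocount of 1, and with 1 library left out between 4.68 and 6.14 at VILI 0 hours and between 4.10 and 6.33 at VILI 6 hours. Each time the lower value omitted replicate 3 of the VILI group and the higher value its replicate 1.

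**Figure D4:**
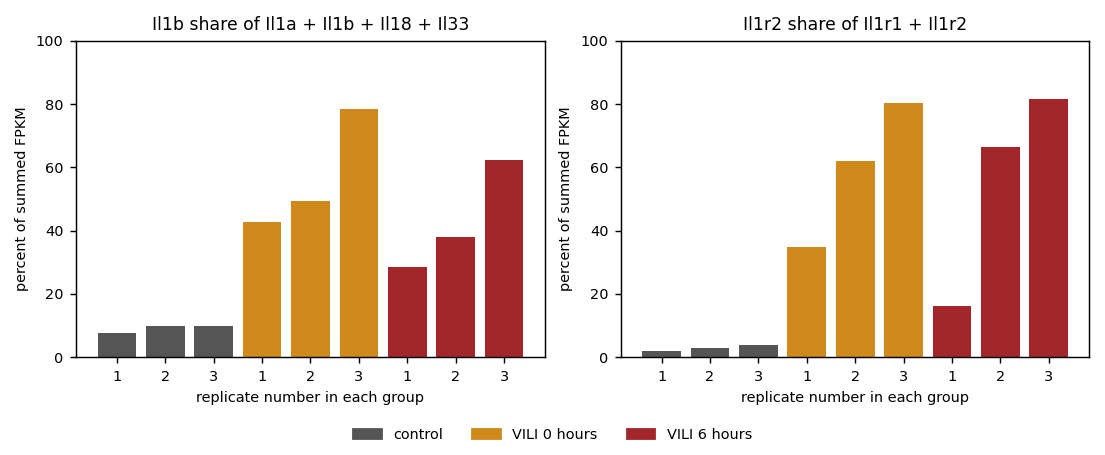
Percent of summed FPKM in each library for Il1b among 4 agonist ligands (left) and for Il1r2 in the sum of Il1r1 and Il1r2 (right), with bars ordered by group and replicate number. Control libraries lie at 7.58% to 9.80% and 1.99% to 3.78%, and all 6 VILI libraries lie above them.

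Genes with profiles most like the other members were found in the same way. Nearest to Il1b were Osm, encoding the cytokine oncostatin M (0.42), Clec4d, a myeloid lectin receptor (0.54), and Slfn4, a schlafen gene of myeloid cells (0.57). Nearest to Il33 were Ptgir, the prostacyclin receptor (0.24), Gm20705 (0.27) and Fam173b (0.27), and nearest to Il18 were Gngt2 (0.18), Gal, which encodes galanin (0.18), and Gm8797 (0.19). On the same scale, the member's own spread over the libraries was 1.63 for Il1b, 2.95 for Il1r2, 0.63 for Il33 and 0.36 for Il18. A smaller difference is therefore not a closer match from one member to another. These are the smallest of 14012 differences and are given as descriptions.

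The genes that moved with Il1b and Il1r2 included markers of neutrophils, cells known to express both. The summed level of 12 neutrophil markers was 54.1 to 66.5 FPKM in control, 572.3 to 1039 FPKM at VILI 0 hours and 503.2 to 2028 FPKM at VILI 6 hours, and 9 and 10 of the 11 markers tested were called higher than control, beside 6.81% and 8.17% of all genes. In control, Elane was listed at 0 in all 3 libraries, Ly6g in replicates 1 and 3 and Camp in replicate 1, while at VILI 6 hours Elane was listed at 0 in replicates 1 and 2. The sum of the 12 markers is weighted towards S100a9 and S100a8, whose highest levels were 1100 and 545.2 FPKM. Those of Cxcr2 and Ly6g were 27.0 and 4.61 FPKM, so the shares below follow S100a9 and S100a8 most. Relative to this sum, Il1b stood at 4.92% to 8.29% in control, 3.12% to 9.40% at VILI 0 hours and 1.38% to 5.25% at VILI 6 hours, so these ranges overlapped. Il1r2 stood at 0.392% to 0.834%, 1.65% to 6.28% and 0.591% to 4.59%, and Il1rn at 3.81% to 5.55%, 0.821% to 1.02% and 0.547% to 1.01%. Il1r2 was thus above its control range in 5 of 6 VILI libraries, and Il1rn was below its own in all 6. The part of neutrophil number in the changes of the members was not tested, and in bulk tissue more or fewer cells of a type and more or less RNA per cell cannot be told apart.

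**Figure D5:**
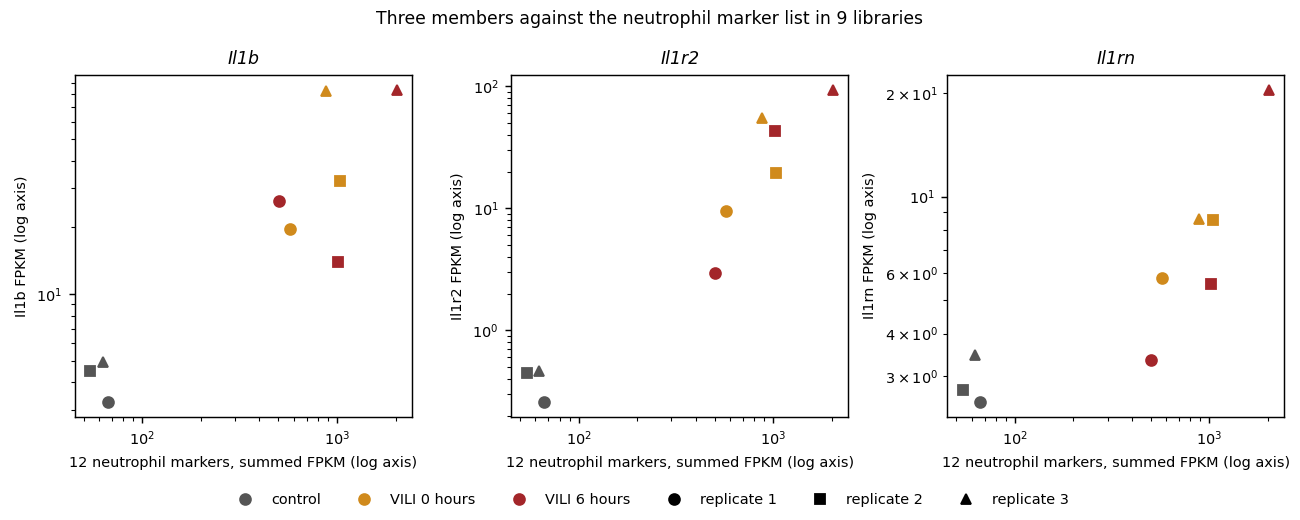
FPKM of Il1b, Il1r2 and Il1rn (vertical, log axes) against the summed FPKM of 12 neutrophil markers (horizontal, log axis) in the 9 libraries, with colour for group and shape for replicate number. The control libraries sit at 54.1 to 66.5 FPKM of markers and all VILI libraries at 503.2 FPKM or more.

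The counts of other markers below stand beside 6.81% and 8.17% of all genes called higher than control and 9.35% and 12.2% called lower at VILI 0 and 6 hours, and the small ones are near these shares. The sum of the alveolar macrophage markers was 257.1 to 348.1 FPKM in control, 428.9 to 491.3 FPKM at VILI 0 hours and 286.2 to 681 FPKM at VILI 6 hours, with 7 and 2 of 10 called higher than control. Of 7 monocyte markers, 0 and 3 were called higher by limma. Alveolar type 2 markers, the secretory cells of the alveolus, summed to 13920 to 15250 FPKM in control, 13830 to 16200 at VILI 0 hours and 13080 to 14000 at VILI 6 hours, with 1 of 9 called higher and 1 called lower at the respective times. The endothelial list, relevant to Il33, summed to 1111 to 1188 FPKM in control, 1072 to 1342 FPKM at VILI 0 hours and 995.4 to 1227 FPKM at VILI 6 hours, with 1 of 7 called lower at VILI 0 hours and 2 at VILI 6 hours. Its lowest sum, in VILI 6 hours replicate 1, was below every control, in the library with the highest Il33 (56.3 FPKM). This was not particular to the endothelial list. The same library also had the lowest alveolar type 2 (13080 FPKM) and T cell (17.5 FPKM) sums and the highest alveolar macrophage sum (681 FPKM). Markers of group 2 innate lymphoid and mast cells, which respond to IL-33, summed to 12.8 to 14.2 FPKM in control, 15.3 to 21.35 FPKM at VILI 0 hours and 9.65 to 14.2 FPKM at VILI 6 hours, with 1 of 6 tested called higher and 1 lower at VILI 0 hours and 1 lower at VILI 6 hours. Of the alveolar type 1 markers 2 of 7 were called higher at each time and 1 lower at 6 hours, of the T cell markers 1 of 6 was called lower at 6 hours, and no cardiac muscle marker was called by limma at an unadjusted P under 0.05. The cardiac muscle sum was nevertheless 301.7 FPKM in VILI 0 hours replicate 3, against 135.6 to 167 FPKM in control and 148.5 to 166.5 FPKM at VILI 6 hours. The part of these cell types in the results was not tested.

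Of 11 further genes of the family, 5 passed the filter of a mean of 0.1 FPKM, and 2 of these were called higher at both times, where 6.81% and 8.17% of all genes were called higher and 16.2% and 20.4% in either direction. They were Il1f9, which encodes IL-36γ (0.824, 3.38 and 0.778 FPKM in control against 3.18, 10.5 and 9.31 at VILI 0 hours, log2 fold change 2.29 ± 0.69, limma adjusted p = 0.161), and Il18rap, the accessory chain of the IL-18 receptor. Il18rap was at 2.70, 2.69 and 2.44 FPKM in control, 5.22, 5.64 and 6.90 FPKM at VILI 0 hours and 3.24, 7.71 and 14.6 FPKM at VILI 6 hours, with all VILI libraries above control. Its log2 fold change was 1.14 ± 0.43 and 1.42 ± 0.43 (limma adjusted p = 0.236 and 0.131), so that both chains of the IL-18 receptor were called higher at VILI 6 hours. At VILI 0 hours the call of Il18rap was lost without control replicate 3 (1.10) or VILI 0 hours replicate 3 (1.03), and leaving out 1 library moved its change at VILI 6 hours between 0.91 and 1.98, and that of Il1f9 at VILI 0 hours between 1.94 and 2.94. The median log2 fold change of the 5 genes was -0.02 and 0.01, close to that of all genes. The 6 genes that did not pass were the IL-36 genes Il1f6, Il1f8 and Il1f5, and Il1f10, Il1rapl1 and Il1rapl2.

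Of 17 genes of the signal chain below the receptors, 2 were called higher at VILI 0 hours, 3 at VILI 6 hours and 2 between both times, and none lower. Of all genes 6.81%, 8.17% and 5.06% were called higher and 16.2%, 20.4% and 10% called in either direction, and the median log2 fold change of the list against control was 0.05 and 0.17, beside -0.07 and -0.09 for all genes, so these counts are near the background. Myd88, the adaptor that IL-1 receptors share with Toll-like receptors, was at 14.3, 14.5 and 14.65 FPKM in control, 19.2, 24.3 and 18.1 FPKM at VILI 0 hours and 22.9, 29.0 and 42.2 FPKM at VILI 6 hours. It rose by a log2 of 0.49 ± 0.20 and then 1.06 ± 0.20 (limma adjusted p = 0.275 and 0.0564). Irak3, which encodes a kinase-dead brake on the pathway, was called at VILI 6 hours (1.03 ± 0.27, limma adjusted p = 0.108), and Peli2, which encodes a ubiquitin ligase, at VILI 0 hours (0.62 ± 0.27, adjusted p = 0.289). At VILI 0 hours the calls of Myd88 (0.36 to 0.53) and Peli2 (0.57 to 0.67) were each lost without any 1 of the 3 controls or either of 2 VILI 0 hours libraries, replicates 1 and 2 for Myd88 and 1 and 3 for Peli2, and that of Myd88 also without VILI 6 hours replicate 2. Without the mean-variance trend in limma neither was called, and Peli2 was also not called with no filter on low values, the replicate block or the highest-mean row alone (0.62 each).

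Of 13 genes of ligand processing, 4 were called higher at each time and none lower, where 6.81% and 8.17% of all genes were called higher and 16.2% and 20.4% in either direction. The median log2 fold change of the list was 0.03 and 0.07, beside -0.07 and -0.09 for all genes. Mefv, which encodes the inflammasome sensor pyrin, was at 0.373, 0.568 and 0.522 FPKM in control, 1.43, 2.87 and 2.25 FPKM at VILI 0 hours and 3.14, 3.22 and 4.90 FPKM at VILI 6 hours, and all VILI libraries were above control. It was the only gene of the 4 pathway lists with an adjusted p under 0.05, at both times (log2 fold change 1.92 ± 0.29 and 2.70 ± 0.29, limma adjusted p = 0.0414 and 0.014). The calls were kept in all 18 alternatives, but the changes were 1.07 and 1.66 with a pseudocount of 1 and 1.52 at VILI 0 hours with the highest-mean row alone. Nlrp3, another inflammasome sensor, rose by 0.89 ± 0.36 and 1.24 ± 0.36 (adjusted p = 0.259 and 0.123), and Casp4, which encodes caspase-11, by 1.12 ± 0.39 at VILI 6 hours (adjusted p = 0.168). Nlrp3 was not called at VILI 0 hours without any 1 of the 3 controls or VILI 0 hours replicate 2 or 3 (0.68 to 0.96), with a pseudocount of 1 or with the highest-mean row alone (0.61 each), nor was Casp4 at VILI 6 hours without VILI 6 hours replicate 3 (0.69). Casp1, which encodes the protease that cuts IL-1β and IL-18, was not called, at 0.18 ± 0.17 and 0.19 ± 0.17 from control (limma adjusted p = 0.647 and 0.548).

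Of 15 genes known to be induced by IL-1, 2 were called higher at VILI 0 hours and 11 at VILI 6 hours, and none lower, where 6.81% and 8.17% of all genes were called higher. Between both times 8 were called higher, beside 5.06% of all genes, and 7 were not called, and their course was not tested against that of Il1b. The median log2 fold change was 0.31 at VILI 0 hours and 2.18 at VILI 6 hours, while that of all genes was -0.07 and -0.09. Saa3, an acute-phase protein gene, was at 1.08, 2.83 and 0.922 FPKM in control, 0.921, 6.83 and 0.951 FPKM at VILI 0 hours and 16.5, 58.3 and 460.3 FPKM at VILI 6 hours. Ccl2, the monocyte chemoattractant gene, was at 0.895, 0.797 and 0.609 FPKM in control, 0.302, 0.911 and 0.221 FPKM at VILI 0 hours and 2.35, 5.27 and 13.6 FPKM at VILI 6 hours. In both, only the VILI 6 hours libraries were all above control, with a log2 fold change of 5.65 ± 1.14 (limma adjusted p = 0.0614) for Saa3 and 2.72 ± 0.60 (adjusted p = 0.0733) for Ccl2. Both sizes were lowest without VILI 6 hours replicate 3 (4.35 and 2.08) and highest without its replicate 1 (6.75 and 3.32), and that of Ccl2 was 1.93 with a pseudocount of 1. The 2 genes called at VILI 0 hours were Cxcl2, a neutrophil chemoattractant gene (3.31 ± 1.41, limma adjusted p = 0.289), and Nfkbia, the NF-κB inhibitor gene (1.44 ± 0.54, adjusted p = 0.238). Cxcl2 at VILI 6 hours was at 2.30, 2.88 and 150.1 FPKM, so the size of its rise of 5.90 ± 1.41 (limma adjusted p = 0.0878) varied widely between replicates, and ran from 3.97 to 6.95 with 1 library left out. Both calls at VILI 0 hours were lost without any 1 of the 3 controls or VILI 0 hours replicate 3, and that of Cxcl2 also without VILI 0 hours replicate 2, at 2.53 to 3.5 for Cxcl2 and 1.32 to 1.46 for Nfkbia. Cxcl2 was at 0.0463 to 0.122 FPKM in control, near the pseudocount, and its change at VILI 0 hours was 4.32 with a pseudocount of 0.01 and 1.40, without a call, with a pseudocount of 1. It was also not called with no filter on low values or without the mean-variance trend in limma. Many of these genes also respond to other signals, so the list does not measure IL-1 activity.

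Antisense and overlapping loci limit some of these levels. Il1bos overlaps the start of Il1b on the opposite strand and was at 0.120 to 0.134 FPKM in control and 0.139 to 0.652 FPKM in the VILI libraries, far below Il1b. Gm38070 lies inside Il1r1 on the same strand at 0.435 to 2.50 FPKM, and Bco2 overlaps the start of Il18 on the opposite strand at 0.428 to 0.963 FPKM. The sample records and the published methods name different library kits, of which only one keeps the strand, so reads of opposite strands may not have been kept apart.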

How the data were processed

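Each sample's group came from its record. The authors deposited FPKM per transcript, estimated with Cuffdiff 2.1.1 after alignment with TopHat2 2.0.9 and Bowtie2 2.0.6 (versions from the submitters' processing notes, which name GRCm38) and assembly with Scripture and Cufflinks, from rRNA-depleted total RNA by the published methods. The table gives no counts, and the read totals per library that the study lists were not used here, so no counting error is given. Here FPKM were summed per gene ID. Of 23713 Ensembl IDs, 23503 matched GENCODE M21 (GRCm38), which gave names and positions, and 3490 further IDs were assembled loci. RefSeq promoter windows (GRCm38.p6) matched 10 of 10 members.

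Log2(FPKM + 0.1) values were fitted with limma 3.58.1 (R 4.3.3), using lmFit and then eBayes with an intensity trend, for 19378 genes with a mean of at least 0.1 FPKM, in 1 fit of 9 libraries with group as the only factor, and Benjamini-Hochberg adjustment over all of them. Each library is 1 mouse. The limma p-values rest on a spread between mice that was pooled over the 3 groups and moderated across genes. A library outside a comparison therefore also affects its p-value. Ratios of 2 members within a library were tested by exact permutation. This fit was tested on simulated data for VILI 6 hours vs control over 19378 genes: at P under 0.05, 88% of changes of log2 1 and 100% of those of log2 2 were recovered, and 5.18% of unchanged genes were called. The simulated noise was normal and independent, with the same SD in each group for a gene, and changes were planted in better expressed genes only. Unequal spread between groups, as seen for Il1r2, was not simulated, so these rates may not hold for the data.

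The members, the gene lists and the tests were chosen with earlier results of these data known. Named genes were the 10 members, per pathway list and comparison the 2 called genes with the largest change (Casp1 and the genes not tested were named after values had been seen), and the 3 genes most like Il1b, Il1r2, Il33 and Il18. Loci overlapping the members were also looked up afterwards. The alternatives were pseudocounts of 0.01 and 1, a mean of at least 1 FPKM, no such filter, a block for replicate number, eBayes with no trend, centring of each library on its median, fits of just the 6 libraries of a comparison, the highest-mean row per gene, and each library left out. Other tools were Python 3.11.15, numpy 2.4.6, pandas 2.3.3, scipy 1.17.1 and matplotlib 3.10.9.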

Additional observations from a re-analysis of the deposited data

Results flagged for a closer look

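The values below set VILI 6 hours against VILI 0 hours, which tests whether the change from control differed between both times, by limma on log2(FPKM + 0.1) with n = 3 libraries per group. None had an adjusted p under 0.05, and 10% of all genes tested had an unadjusted P under 0.05. Il1r1, the receptor of IL-1, was higher by a log2 of 0.43 at VILI 6 hours (limma adjusted p = 0.479), after 0.11 and 0.54 against control. Of the genes known to be induced by IL-1, Saa3 was higher by 5.29 (limma adjusted p = 0.206) and Ccl2 by 3.48 (adjusted p = 0.144), and Ccl2 had been at -0.76 from control at VILI 0 hours and 2.72 at VILI 6 hours. In the signal chain, Myd88 was higher by 0.57 (limma adjusted p = 0.412) and Irak3 by 0.72 (adjusted p = 0.438). Of the genes of ligand processing, Casp4 was higher by 1.02 (limma adjusted p = 0.44) and Mefv by 0.78 (adjusted p = 0.426). Leaving out 1 library ended several of these calls: Il1r1 without control replicate 1 or 3 (0.43 each), VILI 0 hours replicate 2 (0.30) or 3 (0.40) or VILI 6 hours replicate 2 (0.34) or 3 (0.36), Myd88 without VILI 0 hours replicate 1 (0.53) or 3 (0.49) or VILI 6 hours replicate 3 (0.34), and Mefv without replicate 1 of VILI 0 hours (0.52) or replicate 3 of VILI 6 hours (0.58). Irak3 (0.41 to 0.74) and Casp4 (0.59 to 0.98) were not called without replicate 1 or 3 of VILI 0 hours or replicate 2 or 3 of VILI 6 hours, nor Irak3 without VILI 0 hours replicate 2. Saa3 (3.99 to 6.39) and Ccl2 (2.84 to 4.08) stayed called without any 1 library, with sizes lowest without VILI 6 hours replicate 3 and highest without its replicate 1.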

How the results depend on the processing

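Il1b and Il1r2 against control at both times, and Il18r1 at VILI 6 hours, kept their direction and their call in all 18 alternatives. With only the 6 libraries compared, 8 members were called at VILI 0 hours and 5 had an adjusted p under 0.05, with 5076 genes and 18 pathway genes called, and between both times 0 members, 1196 genes and 7 pathway genes were called. With the highest-mean row per gene, 2 members were called at VILI 0 hours and 0 between both times. That choice reversed Il33 (0.19 at VILI 0 hours vs control, -0.30 between both times), Il18 at VILI 6 hours vs control (-0.66), Il1rn between both times (0.03) and Il1rl1 between both times (1.10). Without the eBayes trend, 0 members were called between both times, and with median-centred libraries 1 member had an adjusted p under 0.05 at VILI 6 hours vs control. The cause of these shifts was not tested.

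With the replicate number as a block, 0 members were called between both times and 1 had an adjusted p under 0.05 at VILI 6 hours vs control. Over all genes the block gave 2816, 3485 and 1693 calls, and adjusted calls went from 55 to 10 and from 136 to 43 against control. Deviations of same-numbered libraries from their group means correlated at -0.22 to 0.02, and not every library correlated best with its own number. With so few libraries per group, whose deviations sum to 0, this check cannot decide whether the numbers pair the libraries.

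Leaving out 1 library gave 3 to 7 called members at VILI 0 hours (3 without VILI 0 hours replicate 3, 7 without VILI 6 hours replicate 1), and 0 to 3 with an adjusted p under 0.05 (3 without VILI 6 hours replicate 1 or 3). At VILI 6 hours vs control, 0 to 7 had an adjusted p under 0.05, 7 without VILI 6 hours replicate 1, when 4526 genes of the whole table did. Between both times 0 to 4 members were called (0 without control replicate 1 or 3 or VILI 0 hours replicate 3, 2 without VILI 6 hours replicate 2, 3 without its replicate 3 and 4 without its replicate 1). Calls over all genes ran from 1978 to 4495, 2540 to 7540 and 1406 to 4353 in the 3 comparisons, lowest against control without control replicate 2 and highest without VILI 6 hours replicate 1; without control replicate 3, 2570 were called at VILI 6 hours. Pathway list calls ran from 4 to 15, 13 to 27 and 4 to 18. At VILI 0 hours they were 4 without control replicate 1 or VILI 0 hours replicate 3 and 5 without control replicate 2 or 3. At VILI 6 hours they were 13 without VILI 6 hours replicate 3, and between both times 4 without VILI 0 hours replicate 3, 6 without its replicate 1 and 7 without VILI 6 hours replicate 3. Members with small changes reversed within these ranges: Il1a at VILI 6 hours vs control -0.81 to 1.38, Il33 -0.73 to 0.12, and Il1r1 at VILI 0 hours vs control -0.05 to 0.24. Between both times the ranges were -0.96 to 0.32 for Il1b, -0.92 to 1.54 for Il1r2, -0.07 to 0.41 for Il1rap, -0.21 to 0.10 for Il1rl1 and -0.79 to 0.50 for Il1rn, and the log2 ratios of Il1r2 to Il1r1 and of Il1rn to Il1b ran from -1.28 to 0.95 and from -0.27 to 0.63.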
